A study of Canis lupus familiaris with 40 samples.

Results

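A set of 106 genes was close to silent in the neutrophils and monocytes of healthy dogs and in monocytic myeloid-derived suppressor cells (M-MDSCs), and was present in polymorphonuclear MDSCs (PMN-MDSCs). The genes were chosen from 24580 gene IDs by their CPM (the read count of a gene scaled to the total counted on genes and spike-ins in that library, so that depths can be compared). After 20 IDs that reached 20000 CPM in any library were set aside, 24560 remained. Mean CPM had to be under 2 in healthy neutrophils (H PMN), which left 16808 IDs, and under 2 in healthy monocytes (H Mono), which left 14566. A median of at least 3 CPM in PMN-MDSCs left 143, and a median under 1 CPM in M-MDSCs left the 106. The levels in these 4 populations therefore chose the genes and are given as a description. The neutrophils (C PMN) and monocytes (C Mono) of tumor-bearing dogs took no part in the choice.

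The study sequenced RNA of flow-sorted blood cells from pet dogs in 40 libraries, to ask how MDSCs differ from conventional myeloid cells. From tumor-bearing dogs there were 9 libraries of PMN-MDSCs, 10 of C PMNs, 5 of M-MDSCs and 8 of C Monos, and from healthy dogs 5 of H PMNs and 3 of H Monos. All cells were sorted as negative for the lymphocyte markers CD5 and CD21 and positive for CD11b. PMN-MDSCs came from the mononuclear layer of a density gradient and carried the canine neutrophil marker CADO48A but neither CD14 nor MHC II, whereas PMNs were sorted on the same neutrophil marker from the dense pellet below it. M-MDSCs and monocytes both came from the mononuclear layer and carried CD14, and MHC II was absent from the former and present on the latter. Neutrophils and PMN-MDSCs of tumor-bearing dogs thus shared the main surface marker and differed in density. No MDSC libraries from healthy dogs were analysed here. Tumors differed between dogs. The study describes PMN-MDSCs set against PMNs of the same patient, so that 1 dog can have given libraries to more than 1 population. The labels do not give the dog behind a library, and libraries could not be paired. The p-values below measure the spread between libraries and leave out any such pairing.

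Neutrophils are short-lived granulocytes that leave the bone marrow mature, packed with granule proteins and with a comparatively small range of transcripts. Immature or activated neutrophils have a lower buoyant density and collect with the mononuclear cells, where PMN-MDSCs are sought. In cancer, such cells are known for restraining T cells.

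The files list Ensembl IDs of the CanFam3.1 dog genome without gene names, and a symbol was found here for 0 of the 24580. The functions and positions of the genes were not analysed here, and 4 IDs are named. The other genes are referred to by their rank in PMN-MDSC median CPM. The labelled cell types could not be checked against marker genes by name. They were checked instead against 2 lists of 50 genes each, taken from the healthy libraries as specific to neutrophils or to monocytes. The neutrophil list summed to 68528 to 402814 CPM in PMN-MDSCs and 48584 to 279496 CPM in C PMNs, against 301 to 2019 CPM in C Monos. The monocyte list summed to 95673 to 130494 CPM in C Monos and 64129 to 90875 CPM in M-MDSCs. The neutrophil list summed to 2776 to 4865 CPM in M-MDSCs, above every C Mono library. None of the 106 genes was on either list.

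Depth ranged from 4229857 to 60473238 counts on genes per library. Only 2 libraries held under 10000000 counts, PMN-MDSC replicate 9 with 6299310 and C PMN replicate 7 with 4229857. They also had the fewest genes with at least 10 counts, 3959 and 3470, against 9480 or more in every other library. CPM is scaled to depth, and the reason for the few genes detected there was not tested. Replicates are numbered only to name libraries. The names of the libraries start with either GAR4079 or PAT4694, which is called their library-name series here. To PAT4694 belonged 4 libraries each of PMN-MDSCs, C PMNs and C Monos and 2 of M-MDSCs, and every healthy library was in GAR4079.

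Summed over the 106 genes, the level differed widely between PMN-MDSC libraries. From replicate 1 to replicate 9, the sums were 2662, 3699, 120, 2724, 2729, 4167, 1648, 182 and 835 CPM. Replicates 3 and 8 lay far below the other PMN-MDSC libraries, and replicate 9, the library of low depth, lay between. In C PMNs the sum had a lowest value of 49.2, a median of 85.9 and a highest value of 145 CPM. Replicate 3 of the PMN-MDSCs therefore fell within the range of the C PMNs, while the other 8 libraries lay above it. The 8 C Mono libraries ranged from 39.7 to 162 CPM (median 71.1), and the 5 M-MDSC libraries were at 24.9, 30.1, 48.3, 98.6 and 132 CPM. In healthy dogs the sums were 35.8 to 75.3 CPM in the 5 H PMN libraries and 30.5 to 42.8 CPM in the 3 H Mono libraries. As a share of all counts on genes, the sum stood at 0.266% in the median PMN-MDSC library and at 0.417% in the highest. In bulk samples such as these, fewer cells of a type and less RNA per cell cannot be told apart.

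**Figure D1:**
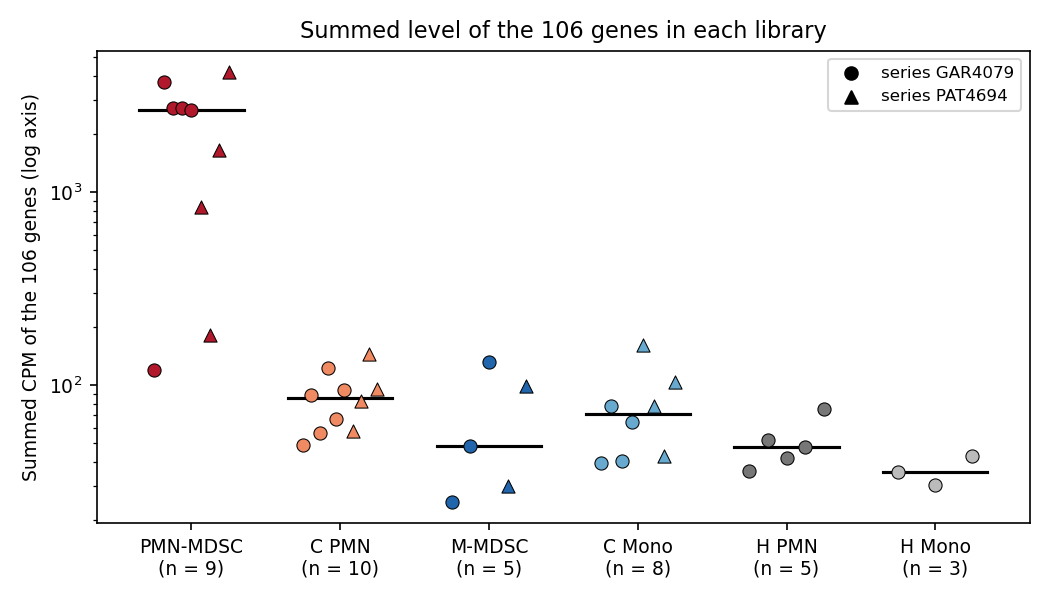
Summed CPM of the 106 genes in each of the 40 libraries (log axis), by population, with a bar at the median and the library-name series as circles (GAR4079) and triangles (PAT4694). The 9 PMN-MDSC libraries span 120 to 4167 CPM and the lowest of them lies within the 49.2 to 145 CPM of the C PMNs.

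The number of genes detected followed the same division. At a level of 3 CPM or more, replicates 1 to 9 of the PMN-MDSCs held 101, 103, 11, 100, 105, 104, 83, 12 and 22 of the 106 genes. Replicate 9, with 3959 genes at 10 counts or more, had no count for 32 of the 106 genes. A C PMN library held between 3 and 13 of the genes at this level, an M-MDSC library 0 to 18 and a C Mono library 0 to 15. In healthy dogs the numbers were 0 to 5 in H PMNs and 0 to 1 in H Monos. The highest M-MDSC and C Mono numbers were thus above those of PMN-MDSC replicates 3 and 8. Because the rule asks for a median, 29 genes reached 3 CPM in exactly 5 of the 9 PMN-MDSC libraries, 54 in 6, 15 in 7, 5 in 8 and 3 in all 9. The value of a gene in replicate 3 was typically 7.56% of that gene's PMN-MDSC median, and in replicate 8 it was 7.98% (medians over the 106 genes). In replicate 9 the corresponding value was 3.59%. The lowest of the 9 values belonged to replicate 3, 8 or 9 for 103 genes. The highest belonged to replicate 2 for 43 genes and to replicate 6 for 32.

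The 106 genes varied together among the PMN-MDSC libraries. On log2(CPM + 0.5), the median Pearson correlation between a pair of them was 0.80 over the 9 libraries. Replicate 9 had few genes detected, 3959 at 10 counts or more, against 9582 to 11388 in the other PMN-MDSC libraries. Other genes at 3 CPM or more in PMN-MDSCs had a median of 0.66 over the same 9 libraries. Without the shallow replicate 9, the medians over 8 libraries were 0.84 for the 106 genes and 0.02 for the other 7323. The same genes showed no such pattern among the C PMNs, where the median was -0.01 over 10 libraries, or among the C Monos, where it was 0.13 over 8. These correlations describe libraries that share depth and cell composition, and the levels outside PMN-MDSCs were mostly under 1 CPM. Membership required a high median in PMN-MDSCs, and no test was made on them.

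**Figure D2:**
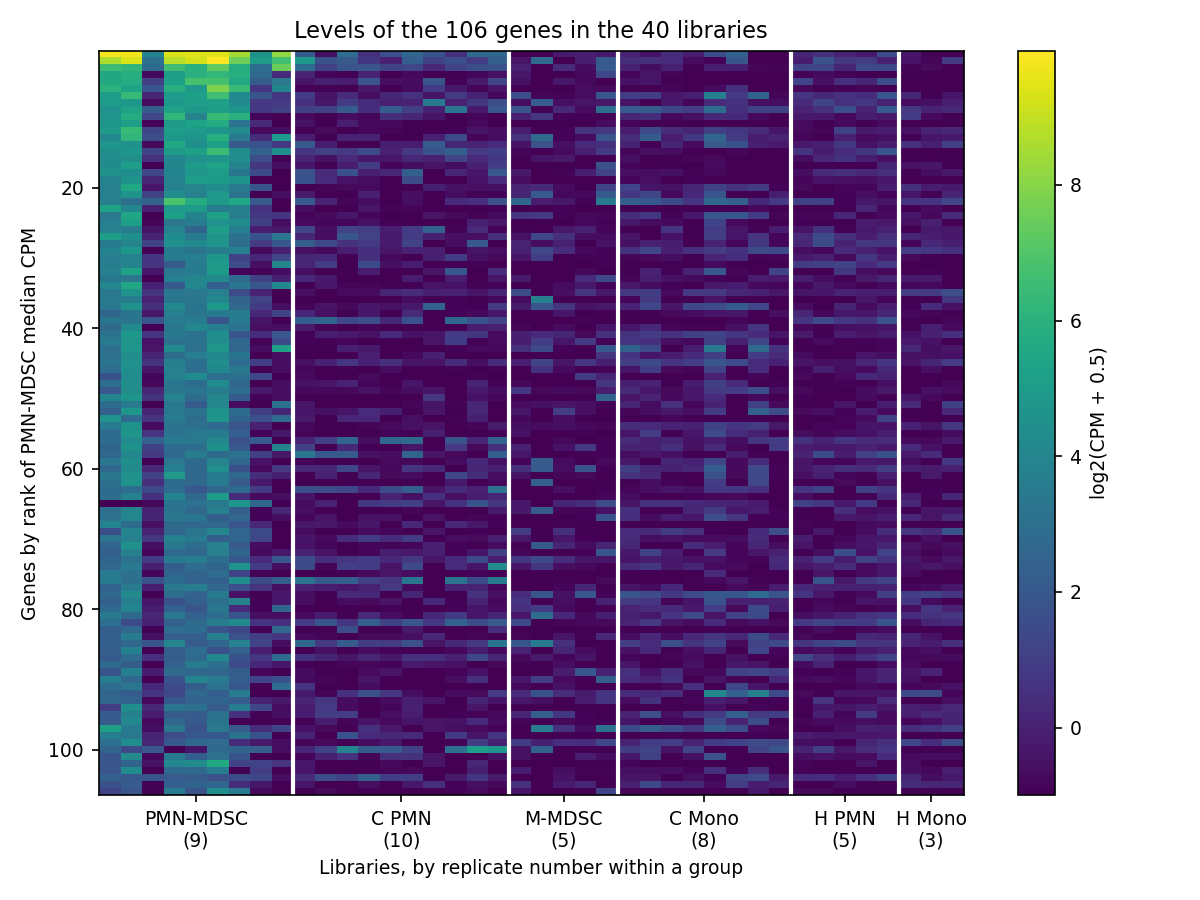
Level of each of the 106 genes as log2(CPM + 0.5), with a row for each gene in order of PMN-MDSC median and a column for each of the 40 libraries, in order of replicate number within a population. PMN-MDSC columns 3, 8 and 9 are darker than the other PMN-MDSC columns in most rows.

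The monocyte list moved with the 106 genes among the PMN-MDSC libraries. It summed to 596 CPM in replicate 3, 2378 CPM in replicate 8 and 3804 CPM in replicate 9, and to between 6734 and 12317 CPM in the other PMN-MDSC libraries. C PMNs stood at 270 to 3505 CPM, and the highest of these was the shallow replicate 7, with 57.9 CPM of the 106 genes. The C Monos, in which the monocyte list was highest, held no more than 162 CPM of the 106 genes. The neutrophil list was also lowest in PMN-MDSC replicates 8 and 3, at 68528 and 68668 CPM. It stood at 402814 CPM in replicate 9 and at 90103 to 159113 CPM in the other PMN-MDSC libraries. The part of monocyte or neutrophil RNA in the levels of the 106 genes was not tested. Marker lists of other cell types were not analysed here.

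**Figure D3:**
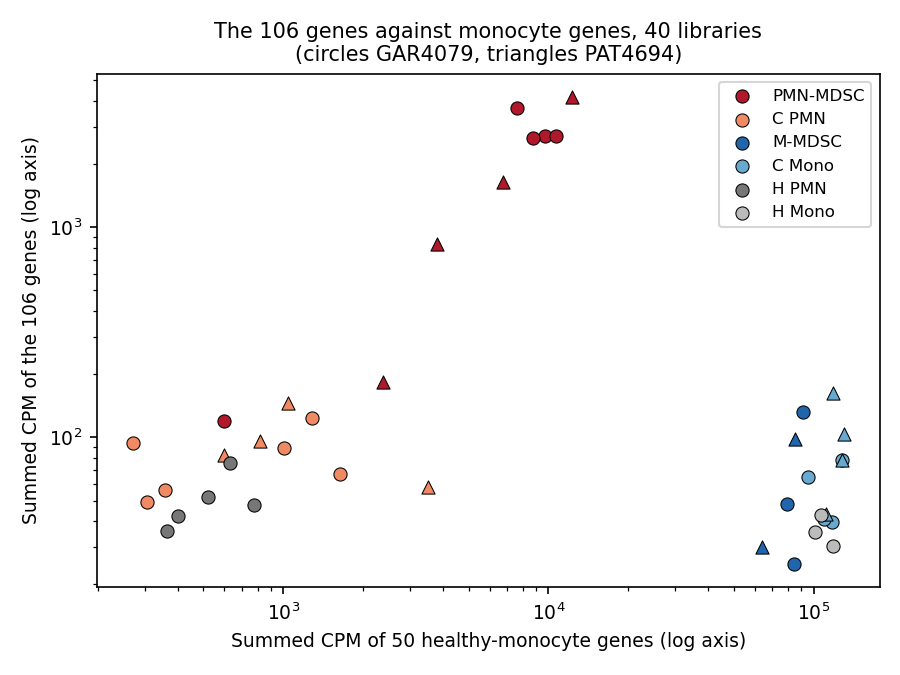
Summed CPM of the 106 genes against summed CPM of the 50 monocyte-list genes in the 40 libraries (both axes log), coloured by population, with circles for GAR4079 and triangles for PAT4694. Among PMN-MDSCs both sums are lowest in replicate 3, at 120 and 596 CPM, while C Mono and M-MDSC libraries are high on the horizontal axis with at most 162 CPM of the 106 genes.

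Most of the genes were of low abundance also in PMN-MDSCs. The median over the genes of the PMN-MDSC median was 6.72 CPM, with 75 genes between 3 and 10 CPM, 28 between 10 and 50 CPM and 3 above 50 CPM. Per transcript length, in TPM (reads scaled to gene length and to a common total), the PMN-MDSC medians ran from 0.722 to 1106 with a median of 4.30. The relative gene length, from the ratio of CPM to TPM, had a median of 1.20 for the 106 genes and 1.09 for the 7449 genes with a PMN-MDSC median of at least 3 CPM. Near the limits of the rule, the 3 lowest PMN-MDSC medians inside were 3.01, 3.04 and 3.12 CPM, and the 3 genes just outside stood at 2.98, 2.97 and 2.90 CPM. At the M-MDSC limit, the highest medians inside were 0.999, 0.968 and 0.950 CPM, and the nearest outside were all 1.03 CPM.

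ENSCAFG00000024769 had the highest PMN-MDSC median. Its level in replicates 1 to 9 was 921, 868, 14.8, 667, 695, 693, 364, 23.4 and 296 CPM. Among C PMNs it ranged from 0.171 to 7.01 CPM with a median of 3.45, so that the lowest PMN-MDSC library stood above every C PMN library. The level was 0 to 4.86 CPM in C Monos, 0.347 to 2.43 CPM in H PMNs, 0 to 0.292 CPM in H Monos and 0 to 0.450 CPM in M-MDSCs. By CPM it ranked 183 among all genes in PMN-MDSCs, with a median of 1106 TPM per length.

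ENSCAFG00000019708 came second, with a PMN-MDSC median of 395 CPM. Replicates 1 to 9 held 395, 647, 8.11, 465, 602, 1009, 186.0, 31.9 and 100.3 CPM. The C PMN libraries ranged from 0.513 to 28.5 CPM with a median of 2.75, and the highest of them, replicate 1, overlapped only with replicate 3 of the PMN-MDSCs. M-MDSC replicates 2 and 5 held 6.45 and 3.79 CPM, and the other 3 were at 0, 0.244 and 0.450 CPM. Together these 2 genes made up between 19.1% and 49.4% of the summed level in a PMN-MDSC library, and without them the sums still ranged from 96.8 to 2466 CPM.

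The gene of rank 3 held 93.4, 75.1, 6.33, 98.5, 63.0, 163, 56.2, 7.26 and 184 CPM in the 9 PMN-MDSC libraries and 0.709 to 6.60 CPM in the C PMNs. It was highest in the shallow replicate 9, unlike most of the set. Ranks 1, 34 and 53 were the 3 genes in which no C PMN library reached the lowest PMN-MDSC library. The share of all genes without such overlap was not counted, so nothing is read from this number. The gene of rank 34 ranged from 0.485 to 43.6 CPM in PMN-MDSCs and from 0 to 0.286 CPM in C PMNs. For rank 53 the ranges were 1.11 to 27.6 CPM and 0 to 0.691 CPM.

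Outside PMN-MDSCs, the genes were low also in C PMNs and C Monos, the populations that the rule did not use. The rule asked for means under 2 CPM in H PMNs and H Monos, so these low levels are partly fixed by the choice. The shares of all genes under 1 CPM were not counted, and nothing is read from the counts that follow. In C PMNs, 88 of the 106 had a median under 1 CPM, 11 of them at 0, and the highest median was 4.03 CPM. In C Monos, 89 had a median under 1 CPM, 17 of them at 0, and the highest was 3.12 CPM. The PMN-MDSC median exceeded every C PMN library for 98 genes and every C Mono library for 101. Over all 7449 genes with a PMN-MDSC median of at least 3 CPM, the shares were 21.6% and 21.6%, and since the rule asked for a high median in PMN-MDSCs and low levels elsewhere, the counts are partly fixed by the choice. In 56 genes, none of the 31 libraries outside PMN-MDSCs reached 3 CPM. The highest of all 40 values was in a PMN-MDSC library for 103 genes. The numbers 56 and 103 are partly fixed by the choice too, and their shares over all genes were not counted. Where the C PMN median was above 0, in 95 genes, the PMN-MDSC median was a median of 38.0 times as high. That ratio sets the levels that chose the genes over C PMN medians mostly under 1 CPM, so nothing is read from it. The 18 genes at 1 CPM or more in C PMNs had a median ratio of 4.14, and the 3 genes of highest PMN-MDSC level were among them.

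**Figure D4:**
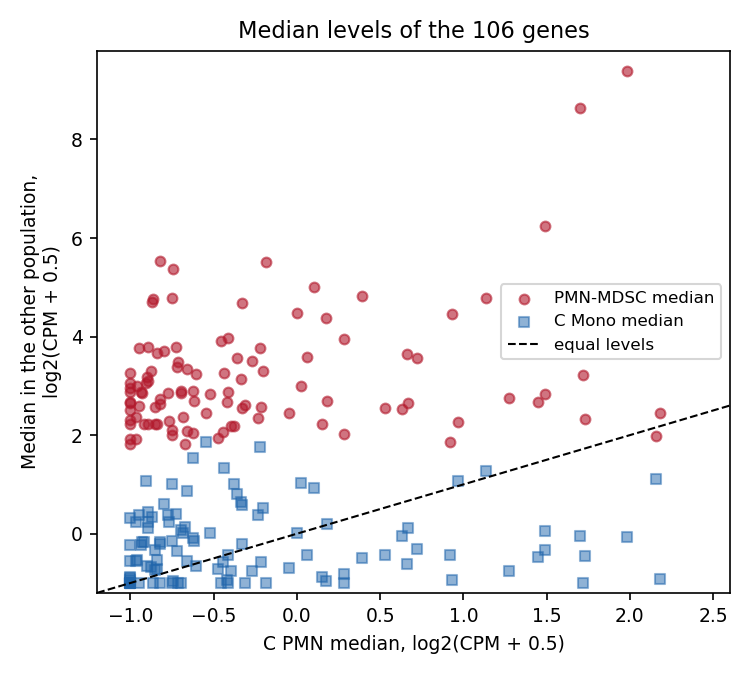
Median levels of the 106 genes as log2(CPM + 0.5), with the C PMN median on the horizontal axis and, on the vertical axis, the PMN-MDSC median (circles) and the C Mono median (squares) of the same gene. The dashed line marks equal levels, and a single circle lies below it, that of ENSCAFG00000007838 (3.46 against 3.97 CPM).

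The genes were compared between PMN-MDSCs and C PMNs with edgeR's quasi-likelihood test over all genes that passed its low-count filter, and called at a Benjamini-Hochberg false discovery rate (FDR) of at most 0.05. Of the 85 genes that passed the filter, 65 were called higher in PMN-MDSCs and 0 lower, where 8.47% of all 10278 genes tested were called higher and 1.57% lower. The rule used the PMN-MDSC levels, so nothing is read from this count or from the p-values of single genes in this comparison. DESeq2 and limma voom called 70 and 79, all of them higher, where they called 14.3% and 23.7% of all genes higher. At an unadjusted p under 0.05 edgeR gave 72 higher and 1 lower, and 27.6% of all genes in either direction. The other 21 genes were too low to be tested. Log2 fold changes of the 65 ranged from 2.42 to 8.16. ENSCAFG00000024769 was at 6.93 ± 0.91 (SE, adjusted p = 0.000173) and ENSCAFG00000019708 at 5.83 ± 0.89 (SE, adjusted p = 0.0004).

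The lowest fitted log2 fold change was that of ENSCAFG00000007838, of rank 100. It ranged from 0 to 6.29 CPM in PMN-MDSCs (median 3.46) and from 0 to 34.8 CPM in C PMNs (median 3.97). The groups overlapped over the whole PMN-MDSC range, and 3 C PMN libraries held over 10 CPM. Its log2 fold change was -1.79 ± 0.83 (SE, adjusted p = 0.163), and it was the only gene of the set with a C PMN median at or above that of PMN-MDSCs. ENSCAFG00000003539, of rank 63, came next, at 0 to 7.35 CPM in PMN-MDSCs and 0.236 to 8.50 CPM in C PMNs, with a log2 fold change of 0.42 ± 0.58 (SE, adjusted p = 0.666). By limma voom it was called, at a log2 fold change of 1.17. These 2 genes passed the rule on healthy dogs and reached PMN-MDSC levels in the C PMNs of some tumor-bearing dogs.

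To measure the difference in libraries that took no part in the choice, the rule was applied again with the MDSC libraries of a single library-name series, and the genes were then measured in the PMN-MDSCs and C PMNs of the other. Healthy libraries, all from GAR4079, were kept in the rule. The mean in H PMNs thus still had to be under 2 CPM, so that low levels in C PMNs may be partly fixed by the choice. The shares over all genes given below are not limited to genes low in H PMNs. The PAT4694 MDSCs chose 63 genes, 54 of them among the 106. In GAR4079, the PMN-MDSC sums over these 63 genes were 1710, 2012, 74.2, 1527 and 1501 CPM in replicates 1 to 5, and the 6 C PMN sums ranged from 37.5 to 133 CPM. All PMN-MDSC libraries but replicate 3 lay above the C PMNs. The PMN-MDSC median was above the C PMN median in 62 of the 63 genes, against 58.6% of the 14445 genes with counts, and it reached 3 CPM in 57. Of 57 genes tested by edgeR, 42 were higher in PMN-MDSCs at an FDR of at most 0.05 and 0 lower, where 12.6% of all 10723 genes tested were higher and 5.60% lower. DESeq2 and limma voom called 45 and 44 of them, also all higher, where they called 16.7% and 22.7% of all genes higher. At an unadjusted p under 0.05 edgeR gave 47 higher and 0 lower, and 35.4% of all genes in either direction. Their log2 fold changes ranged from 2.28 to 8.68, and the median over the 57 was 4.36, against 0.05 over all genes tested. ENSCAFG00000024769, which these 63 included, had a log2 fold change of 7.23 ± 1.08 (SE, adjusted p = 0.00432). Genes near 0 in C PMNs could pass the low-count filter through their PMN-MDSC counts alone. The share called among the 57 tested is therefore partly fixed by the filter. With no filter beyond a count above 0, edgeR called 46 of all 63 higher, against 5.81% of all 19469 genes.

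In the other direction, the GAR4079 MDSCs chose 128 genes, 99 of them among the 106. In PAT4694, they summed to 4257, 1689, 244 and 850 CPM in PMN-MDSC replicates 6 to 9 and to 78.1 to 195 CPM in the 4 C PMN libraries, so that the sums did not overlap. The numbers of these genes at 3 CPM or more did overlap. They were 109, 87, 13 and 23 in PMN-MDSC replicates 6 to 9 and 4 to 19 in the C PMN libraries. The PMN-MDSC median was above that of C PMNs in 115 of the 128 genes, against 52.7% of the 14264 genes with counts, and reached 3 CPM in 67. By edgeR's test, 0 of the 76 genes tested were called, and of all 9666 genes tested 0% were called. At an unadjusted p under 0.05 there were 40 of the 76, and 598 of all genes. DESeq2 called 16 of the 76, all higher in PMN-MDSCs, and limma voom called 2, where they called 0.941% and 0.186% of all genes higher. The median log2 fold change over the 76 was 2.98, against -0.01 over all genes tested. ENSCAFG00000024769 had a log2 fold change of 6.58 ± 1.48 (SE) there, with an adjusted p of 0.307 by edgeR. The limit set by the low-count filter holds for the 76 genes tested here too.

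**Figure D5:**
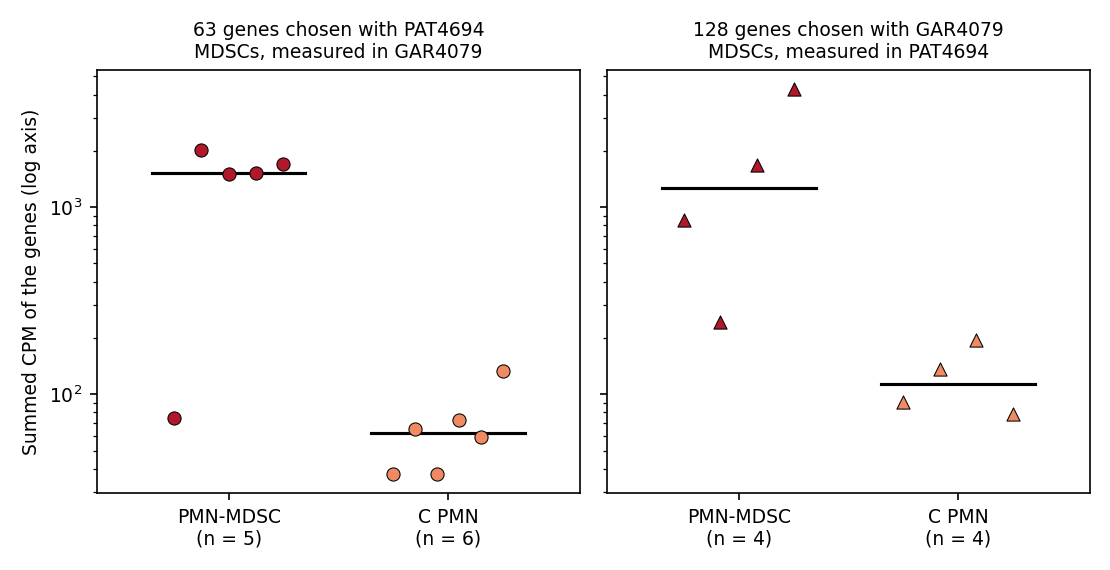
Summed CPM (log axis) in PMN-MDSC and C PMN libraries of a series that took no part in the choice of the MDSC levels, with 63 genes measured in GAR4079 on the left and 128 in PAT4694 on the right. Bars are medians. In GAR4079, 1 PMN-MDSC library at 74.2 CPM lies within the C PMN range, and in PAT4694 all 4 lie above it.

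The 106 genes were also compared between PMN-MDSCs and C PMNs within each series, on libraries that the rule had used, so that these counts too are a description. In GAR4079 alone 78 of 94 tested genes were called higher, against 12.6% of all genes. In PAT4694 alone 0 of 65 were called, and 39 had an unadjusted p under 0.05, against 598 of all 9666 genes. The difference between the series was tested as an interaction in a single edgeR fit, and it was called for 0 of 85 genes and for 0 of all 10278. At an unadjusted p under 0.05 there were 11 of the 85 (12.9%), and 2.47% of all genes.

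C PMNs were then compared with C Monos, neither of which entered the rule, to ask whether the residual level of the genes in tumor-bearing dogs was that of a lineage. By medians of CPM, which is scaled to library size alone, 43 genes were higher in C PMNs, 58 higher in C Monos and 5 equal. In a fit with that scaling, 28.7% of all 11261 genes tested had a log2 fold change above 0. The share of all genes by medians was not counted, and no lean is read from these counts. The test that follows used edgeR's TMM scaling. Only 46 of the 106 genes passed the low-count filter. Of these, 25 were called, 22 higher in C PMNs and 3 higher in C Monos, where 65.6% of all 11261 genes tested were called, 31.5% higher in C PMNs and 34.1% lower. The share called, 54.3% of those tested, did not exceed the background. The share higher in C PMNs was 47.8% and the share lower 6.52%. The rule asked for a high median in PMN-MDSCs and low levels in H PMNs, H Monos and M-MDSCs. A lean toward C PMNs may therefore be partly fixed by the choice, and no lineage is read from these shares. Scaling to library size alone gave 14 higher (30.4%, against 13.1% of all genes) and 13 lower (28.3%, against 50.9%), and shifted the median over all genes tested, as a log2 fold change, from -0.03 to -1.08.

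The 22 genes higher in C PMNs had C PMN medians of 0.467 to 4.03 CPM, and 16 of them were among the 18 genes at 1 CPM or more in C PMNs. For ENSCAFG00000024769, C PMNs had a median of 3.45 CPM and C Monos of 0.449 CPM, with overlapping ranges (log2 fold change 2.93 ± 0.95 SE, adjusted p = 0.0106). ENSCAFG00000019708 had medians of 2.75 and 0.470 CPM (4.06 ± 1.04 SE, adjusted p = 0.00185). The former call was lost with scaling to library size alone (log2 fold change 1.65), and both were lost in PAT4694 alone (2.77 and 3.17). ENSCAFG00000007838 and ENSCAFG00000003539 were also higher in C PMNs, by log2 fold changes of 3.71 ± 0.94 (SE, adjusted p = 0.00181) and 3.47 ± 0.79 (SE, adjusted p = 0.000749). The 3 genes higher in C Monos had C Mono medians of 0.794 to 3.12 CPM and log2 fold changes of -2.31 to -1.87. Within GAR4079, 25 of 68 tested genes were higher in C PMNs and 5 lower, where 29.5% of all genes were higher and 33.7% lower. Within PAT4694, 7 of 44 were higher and 2 lower, where 13.7% of all genes were higher and 18.3% lower.

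The number of genes that the rule keeps moved with the libraries used. Without PMN-MDSC replicate 3 it was 120, and without M-MDSC replicate 3 it was 97, the extremes of leaving out 1 library. CPM on TMM-scaled library sizes gave 130 genes, including all 106. With TPM in place of CPM there were 85, of which 61 were among the 106, and with means of the MDSC libraries in place of medians there were 114, of which 82 were among them.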

How the data were processed

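Reads were made from sorted blood cells with Smart-seq2 and Nextera XT, a low-input protocol, as 75 bp pairs. The authors removed adapters (skewer), aligned the pairs to the CanFam3.1 genome and ERCC spike-ins (HISAT2), marked duplicates (Picard 1.92) and counted uniquely mapped exon reads of Ensembl genes with featureCounts of Subread 1.5.0. The authors deposited these counts without normalization. They also deposited CPM values, which were checked to be the counts scaled to the library total, and TPM values, whose gene lengths are not given in the sources used here. A further copy of the CPM table was not used. Spike-ins were at most 0.000275% of a library.

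The labels give more PMN-MDSC and C PMN libraries than the series' design text counts, the reason is not given in the sources used here, and all labelled libraries were kept. The 106 genes were chosen on the CPM values. Members and lists were chosen with earlier results of these data known. The counts of the 24580 gene IDs were fitted with edgeR 4.0.16 in R 4.3.3 (TMM, filterByExpr, quasi-likelihood test), with only the libraries compared, and p-values were adjusted over all genes tested. Standard errors are the log2 fold change divided by the root of F. limma 3.58.1 and DESeq2 1.42.0 were alternatives, and tables and figures were made with pandas 2.3.3, numpy 2.4.6 and matplotlib 3.10.9 in Python 3.11.15. The tests were tried on simulated data with known changes. The alternatives were other scalings, filters, tests and thresholds, a term for the series, fits within a series, and leaving out libraries in turn. Leaving out PMN-MDSC replicates 3 and 8 together and the test of the difference between series were added after the data had been seen. Because no IDs could be matched to symbols, the named IDs were the 2 of highest PMN-MDSC median and the 2 of lowest log2 fold change against C PMNs, and lists of marker or pathway genes were not analysed here. The lineage lists held the 50 genes of highest healthy mean with at least 50 CPM in their lineage, at least 50-fold less in the other and no overlap of libraries. Reads were not counted as molecules, and depth sets the precision of the low levels given here, for counting error only.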

Additional observations from a re-analysis of the deposited data

Results flagged for a closer look

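In 40 groups of 4 to 10 libraries, the highest or lowest value was set against the rest of its group, and 9 stood apart by Dixon's ratio. Chance flags about 1 in 20 groups where values are normally distributed. The values here were not transformed and some lay at or near 0, so the 9 cannot be set against that rate. Of the values of the 4 named genes, ENSCAFG00000019708 stood apart in C PMN replicate 1 (28.5 CPM) and C Mono replicate 6 (3.29 CPM), and ENSCAFG00000024769 in H PMN replicate 5 (2.43 CPM). ENSCAFG00000007838 was at 5.20 CPM in M-MDSC replicate 2, where the other M-MDSC libraries were at or under 0.195 CPM. ENSCAFG00000003539 was at 8.50 CPM in C PMN replicate 10 and at 0.187 CPM in M-MDSC replicate 3. The shallow libraries had the highest neutrophil-list sums of their groups, at 402814 CPM in PMN-MDSC replicate 9 and 279496 CPM in C PMN replicate 7, and the latter also had the highest monocyte-list sum of the C PMNs, at 3505 CPM. The summed level of the 106 genes was not flagged in any group.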

How the results depend on the processing

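Between PMN-MDSCs and C PMNs, the 65 calls became 51 to 86 under the other alternatives, which tested 85 to 106 of the genes, except for 1 call with at least 10 counts in every library, where 1 gene was left to test, and 0 in PAT4694 alone. Leaving out 1 library gave 53 to 75, and leaving out replicates 3 and 8 of the PMN-MDSCs, an alternative added after seeing the data, gave 82 calls and 134 genes under the rule. For C PMNs against C Monos, the 25 calls became 43 with no filter, 0 with at least 10 counts in every library, where no gene was left to test, and 9 in PAT4694 alone, and 19 to 32 without 1 library. The 42 calls in GAR4079 became 27 at an FDR of 0.01 and 5 with at least 10 counts in every library, where 10 genes were tested, and 35 to 53 without 1 library. The 0 calls in PAT4694 became 32 with no filter, of which 31 were higher, 16 with DESeq2 and 2 with limma voom, and stayed at 0 (lowest 0, highest 0) without any 1 library. The causes were not tested. The rule kept 63 genes with the PAT4694 MDSCs alone, and 97 to 120 without 1 library. No fold change of a named gene changed sign between PMN-MDSCs and C PMNs of both series together. In PAT4694, that of ENSCAFG00000003539 was 0.0019, -0.15 with DESeq2's size factors, -0.16 with DESeq2, and between -0.52 and 2.06 without 1 library. No paired analysis was possible because the labels give neither a dog nor a replicate number. Levels of 1 to 3 CPM in the 2 shallow libraries rest on few reads.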
